A study of Mus musculus with 12 samples.

Results

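The transcriptional response of control mouse renal tubular epithelial cells (mTECs, a cell line) to TGF-β1 was measured by mRNA sequencing. The members were 6 of the 12 libraries of the series: 3 labelled NC+TGF-β1, control cells given the cytokine, and 3 labelled NC, control cells without it. The other 6 libraries, from cells with Fh1 silenced without or with TGF-β1 (KD and KD+TGF-β1), entered the model fit and are compared near the end. Fh1 codes for fumarate hydratase, a mitochondrial enzyme, and the study concerns its part in renal inflammation and scarring. The labels give no dose or duration of TGF-β1, no silencing reagent, and do not say what the NC cells were treated with or whether replicates were separate cultures, so p-values measure the spread between these libraries, which can be technical. Values of NC+TGF-β1 and NC libraries come from 2 separate deposited tables, so the cytokine and the table, or the experiment behind it, cannot be told apart in any comparison here. Every "rose" and "fell" below is meant in that sense.

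TGF-β1 is secreted in a latent form, is released by proteases, integrins and thrombospondin, and binds a pair of serine/threonine kinase receptors that phosphorylate Smad2 and Smad3. These enter the nucleus with Smad4 and act with partners such as AP-1 and the serum response factor, and they also raise their own inhibitors, among them Smad7, Skil and Pmepa1. In kidney tubules the cytokine is known for matrix production, a contractile cytoskeleton, growth arrest and a partial loss of epithelial traits, all of which feed fibrosis.

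The 6 libraries held 17651213 to 18104166 estimated counts each. On the first principal component (82.1% of their variance) the NC+TGF-β1 libraries lay at 34.8 to 35.6 and the NC libraries at -37 to -33.8. NC replicate 1 stood apart on the second (7.26%), at 19.4 against -4.55 and -15.6 for the other NC libraries and -1.63 to 3.40 for those with TGF-β1. Of 16 markers of tubule epithelium 14 were listed and detected in both groups, with a summed level of 5810 to 5950 CPM (counts scaled to library size) in NC+TGF-β1 libraries, against 4310 to 4490 CPM in NC libraries. Slc34a1 and Aqp2, which mark the proximal tubule and the collecting duct, are not among the genes analysed here. Markers of endothelium summed to 2.91 to 3.68 CPM in NC+TGF-β1 libraries, against 0.706 to 1.25 CPM in NC libraries. Those of fibroblasts and pericytes summed to 4.5 to 6.03 CPM in NC+TGF-β1 libraries, against 6.18 to 7.17 CPM in NC libraries. Markers of immune cells summed to 95.5 to 101 CPM in NC+TGF-β1 libraries, against 84.1 to 92.3 CPM in NC libraries, and Cd3e and Tyrobp are not among the genes analysed. Podocyte markers summed to 577 to 590 CPM in NC+TGF-β1 libraries, against 662 to 888 CPM in NC libraries, with Wt1 at 0 in all 6. None of the 10 pluripotency markers looked for is among the genes analysed in these 6 libraries.

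Most measured genes differed between the groups, mostly by little. Of 11707 genes tested with edgeR's quasi-likelihood test, 7511 (64.2%) were called at an adjusted p under 0.05, of which 3443 (29.4%) rose and 4068 (34.7%) fell. The median called change was 1.27-fold for those that rose and 1.34-fold for those that fell. A change of at least 1.5-fold was reached by 944 genes that rose (8.06%) and 1396 that fell (11.9%), of at least 2-fold by 449 (3.84%) and 614 (5.24%), and of at least 4-fold by 150 and 151. For 7711 genes (65.9%) the ranges of the groups lay apart. A count of called members in any list below is to be read against the shares of 29.4% higher and 34.7% lower among all genes. The calls leaned with level: when genes were split by mean CPM into 5 equal bins, 44.9% rose and 27.8% fell in the highest bin, and 19% rose and 44.1% fell in the bin above the lowest. In bulk RNA, fewer cells that express a gene and less of its RNA per cell cannot be told apart.

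The ligands and receptors shifted in both directions, with the type II receptor that binds TGF-β1 among those that fell. Tgfbr2 (Entrez 21813), the ligand-binding type II receptor, stood at 161, 168 and 157 CPM in NC+TGF-β1 libraries, against 372, 361 and 374 CPM in NC libraries. The groups did not overlap, and the level was 2.27-fold lower with TGF-β1 (log2 change -1.19, SE 0.0307, adjusted p = 4.48e-13). Its partner Tgfbr1, the type I receptor, was at 66.6, 68.9 and 64 CPM in NC+TGF-β1 libraries, against 87.9, 70 and 61.7 CPM in NC libraries, ranges that overlap (log2 change -0.14, adjusted p = 0.201; without NC replicate 3 it was called lower, at -0.21). Of 12 receptors tested 6 rose and 2 fell. The other that fell was Tgfbr3, the coreceptor betaglycan, named after its values were seen, with 0, 2 and 0 estimated counts in NC+TGF-β1 libraries, against 18, 8 and 17 in NC libraries. Acvr1, a type I receptor for activins and BMPs, rose (log2 change 1.21, adjusted p = 3.23e-12), as did the BMP receptor Bmpr2 (log2 change 0.62, adjusted p = 1.62e-04) and the activin receptor Acvr2b (log2 change 0.41, adjusted p = 1.29e-04). Of 14 ligands and latency proteins 6 rose and 8 fell. Some proteins that store or free the cytokine were among those that rose: the latent TGF-β binding protein Ltbp1 (log2 change 1.22, adjusted p = 2e-10), the activator Thbs1 or thrombospondin 1 (log2 change 1.12, adjusted p = 4.22e-13) and the protease Bmp1 (log2 change 1.20, adjusted p = 5.17e-13). Itgb6, an integrin subunit whose product also frees the cytokine, fell, as given below. Thbs1 was also abundant, at 2339 ± 50.9 CPM in NC+TGF-β1 libraries, against 1076 ± 40.7 CPM in NC libraries (SD, n = 3 each). The activin antagonist Fstl3 rose as well (log2 change 1.97, adjusted p = 7.97e-12). The ligands Tgfb1 (log2 change -0.81, adjusted p = 0.00131), Bmp7 (log2 change -1.07, adjusted p = 5.72e-08), a kidney antagonist of TGF-β1, Inhba (log2 change -0.49, adjusted p = 0.00107) and the stress-induced Gdf15 (log2 change -1.50, adjusted p = 1.62e-12) fell. The Tgfb1 transcript itself was sparse, at 2.62, 1.98 and 2.3 CPM in NC+TGF-β1 libraries, against 4.37, 3.53 and 4.23 CPM in NC libraries.

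Inhibitors of the pathway rose together with its outputs. Of 13 feedback inhibitors tested 9 rose and 3 fell. Smad7 (Entrez 17131), which blocks the receptor complex, was at 140.4, 132 and 135 CPM in NC+TGF-β1 libraries, against 50, 50.8 and 53.6 CPM in NC libraries, with no overlap (log2 change 1.40, SE 0.0434, adjusted p = 2.85e-12). Pmepa1, which takes Smad2 and Smad3 from the receptor, was at 655, 623 and 662 CPM in NC+TGF-β1 libraries, against 218, 219.9 and 206 CPM in NC libraries (log2 change 1.59, SE 0.0377, adjusted p = 1.91e-13). Skil, a repressor of Smad complexes, was at 218, 218 and 206 CPM in NC+TGF-β1 libraries, against 104, 94.3 and 93.6 CPM in NC libraries (log2 change 1.14, SE 0.0436, adjusted p = 2.9e-11). In each of these 3 inhibitors all libraries with TGF-β1 lay above all libraries without it. The corepressor Tgif1 (0.80), the ubiquitin ligases Smurf1 (0.63) and Smurf2 (0.42) and Ski (0.37) rose by less on the log2 scale. The signal carriers themselves moved little: Smad2 rose (log2 change 0.35, adjusted p = 9.9e-07), Smad3 fell (log2 change -0.24, adjusted p = 1.84e-05) and the shared partner Smad4 was at 163, 159 and 162 CPM in NC+TGF-β1 libraries, against 168, 158 and 152 CPM in NC libraries, overlapping ranges (log2 change 0.02, adjusted p = 0.691). Smad5, which carries BMP signals, rose (log2 change 0.74, adjusted p = 8.02e-09), and the BMP-side inhibitor Smad6 stood at a log2 change of -0.05 (adjusted p = 0.606).

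Of 33 textbook target genes of TGF-β1, 23 rose and 5 fell, with a median log2 change of 1.14 against -0.03 over all genes tested. Ccn2 (Entrez 14219), connective tissue growth factor, was at 2248, 2182 and 2263 CPM in NC+TGF-β1 libraries, against 595, 581 and 614 CPM in NC libraries (log2 change 1.90, SE 0.0351, adjusted p = 1.45e-14). All its libraries with TGF-β1 lay above all without it. Ccn4, a matricellular protein of the same family, was nearly silent without the cytokine, at 21.3, 20.8 and 20.7 CPM in NC+TGF-β1 libraries, against 0.56, 0.706 and 0.976 CPM in NC libraries (log2 change 4.79, SE 0.118, adjusted p = 2.84e-13). Il11, a profibrotic cytokine, was at 5.13, 5.88 and 5.23 CPM in NC+TGF-β1 libraries, against 0.672, 0.598 and 0.38 CPM in NC libraries (log2 change 3.29, SE 0.217, adjusted p = 9.77e-09). Nedd9, a docking protein of focal adhesions, rose (log2 change 2.61, adjusted p = 3.17e-13), as did the AP-1 subunit Junb (log2 change 1.52, adjusted p = 3.44e-14) and Ldlrad4, another inhibitor of Smad phosphorylation (log2 change 1.13, adjusted p = 8.07e-12). The members that fell were Id2 (log2 change -1.51, adjusted p = 1.47e-09), Id1 (log2 change -0.62, adjusted p = 6.68e-08), the integrin Itgb6 (log2 change -0.70, adjusted p = 3.7e-06), Tgfb1 and Myc (log2 change -0.26, adjusted p = 1.13e-04). Id1 and Id2 hold back differentiation and are known to be repressed by TGF-β1 in epithelia, as is Myc, so that the list holds targets of either direction. Id3, of the same family, rose (log2 change 0.54, adjusted p = 0.00408) at a low level of 4.45, 4.64 and 3.96 CPM in NC+TGF-β1 libraries, against 2.58, 3.1 and 3.31 CPM in NC libraries. The growth inhibitor Cdkn2b rose (log2 change 0.83, adjusted p = 8.06e-08). Cdkn1a, the CDK inhibitor p21, was at 417, 422 and 417 CPM in NC+TGF-β1 libraries, against 404, 402 and 439 CPM in NC libraries, with overlapping ranges (log2 change 0.01, adjusted p = 0.757; without NC replicate 3 it was called higher, at 0.09). The zinc finger factor Klf10, an early TGF-β1 target, was at 28.3, 26 and 27.5 CPM in NC+TGF-β1 libraries, against 33.6, 28.2 and 26.5 CPM in NC libraries and did not pass (log2 change -0.11, adjusted p = 0.261).

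Among called genes of at least 5 CPM in either group and without overlap, the largest increases by fold lay mostly outside the textbook list. Sparser genes were left out of this ranking, among them Acta2 (log2 change 5.45). Mcam (Entrez 84004), an adhesion molecule, stood at 43.4, 40.1 and 41.3 CPM in NC+TGF-β1 libraries, against 0.224, 0.598 and 0.542 CPM in NC libraries (log2 change 6.49, SE 0.138, adjusted p = 5.16e-14). Clu (Entrez 12759), the secreted chaperone clusterin and a marker of tubular injury, stood at 645, 690.2 and 677 CPM in NC+TGF-β1 libraries, against 10.9, 10.7 and 11 CPM in NC libraries (log2 change 5.95, SE 0.0433, adjusted p = 9.14e-19). Neither gene's groups overlapped. Cotl1, which binds F-actin, was at 32, 26.8 and 29.9 CPM in NC+TGF-β1 libraries, against 0.56, 0.76 and 0.542 CPM in NC libraries (log2 change 5.56, SE 0.146, adjusted p = 4.92e-13). Cd40, a receptor of the TNF family, reached 8.27, 7.02 and 6.84 CPM in NC+TGF-β1 libraries, against 0.392, 0.217 and 0.163 CPM in NC libraries (log2 change 4.81, SE 0.21, adjusted p = 1.11e-10). Has2, the synthase of hyaluronan in the matrix, reached 24.2, 24.1 and 21.4 CPM in NC+TGF-β1 libraries, against 1.18, 1.09 and 0.597 CPM in NC libraries (log2 change 4.60, SE 0.14, adjusted p = 2.29e-12). The T-type calcium channel Cacna1g (4.33), the cysteine protease Ctsw (4.31), the Src-family kinase Fgr (4.16), the cornified envelope gene Lce1f (4.12) and the adaptor Dok2 (3.65) rose by log2 changes in the same range (adjusted p at most 2.96e-09). For Lce1f, reads may be shared with its close paralogs.

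**Figure D1:**
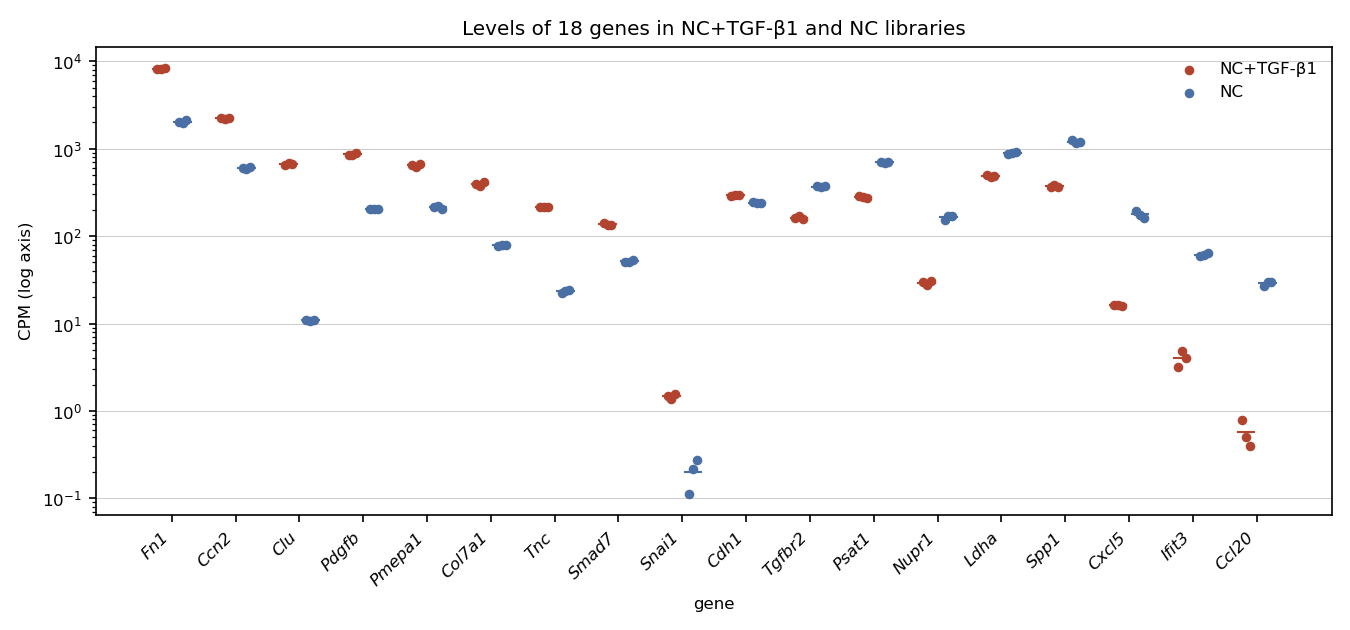
CPM (log axis) of 18 genes in each of the 3 NC+TGF-β1 libraries (red) and the 3 NC libraries (blue), with short lines at the group means. Fn1, Clu and Tnc are higher and Nupr1, Cxcl5, Ifit3 and Ccl20 lower in every library with TGF-β1, and Cdh1 differs little.

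Among matrix genes, fibronectin, tenascin and several collagens rose, while collagen chains of the basement membrane split. Fn1 (Entrez 14268), fibronectin, was at 8086, 8206 and 8320 CPM in NC+TGF-β1 libraries, against 2011, 1993 and 2124 CPM in NC libraries, with no overlap (log2 change 2.01, SE 0.0279, adjusted p = 1.04e-15).  Tnc, tenascin C of provisional matrix, was at 214, 217 and 218 CPM in NC+TGF-β1 libraries, against 22.5, 23.4 and 24.2 CPM in NC libraries (log2 change 3.21, SE 0.0344, adjusted p = 5.9e-17). Of 24 matrix glycoproteins and proteoglycans 13 rose and 6 fell. The laminin chains Lama3 (log2 change 1.54, adjusted p = 1.91e-13) and Lamb3 (log2 change 1.18, adjusted p = 5.98e-13), which anchor epithelia to the basement membrane, rose. Sparc, a collagen-binding protein, rose (log2 change 1.91, adjusted p = 1.92e-10). Spp1, osteopontin, fell to 363, 384 and 364 CPM in NC+TGF-β1 libraries, against 1264, 1162 and 1182 CPM in NC libraries (log2 change -1.70, SE 0.0424, adjusted p = 3.18e-13).

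Of 14 collagens tested 8 rose and 3 fell, with a median log2 change of 0.94. Col7a1, the collagen of anchoring fibrils, was at 391, 371 and 418 CPM in NC+TGF-β1 libraries, against 78, 78.5 and 80.1 CPM in NC libraries (log2 change 2.32, SE 0.0426, adjusted p = 1.45e-14). The fibrillar Col1a1 was 8.92-fold higher but sparse, at 5.36, 6.17 and 7.24 CPM in NC+TGF-β1 libraries, against 0.448, 0.923 and 0.705 CPM in NC libraries (log2 change 3.16, SE 0.214, adjusted p = 1.29e-08). The fibrillar chain Col1a2 had 5, 0 and 1 estimated counts in NC+TGF-β1 libraries, against 1, 0 and 0 in NC libraries. Col3a1 had 1, 1 and 0 with TGF-β1, against 1, 1 and 0 without. Both were too sparse to be tested. Col6a1 was likewise sparse, at 9.01, 7.87 and 8.39 CPM in NC+TGF-β1 libraries, against 0.504, 0.923 and 0.814 CPM in NC libraries (log2 change 3.48, SE 0.178, adjusted p = 6.22e-10). Among the basement membrane chains Col4a3 rose (log2 change 1.20, adjusted p = 1.42e-10), while Col4a5 (log2 change -0.94, adjusted p = 5.26e-09) and Col4a2 (log2 change -0.45, adjusted p = 1.24e-07) fell. Of 16 enzymes that modify or crosslink collagen 7 rose and 5 fell. The collagen chaperone Serpinh1 (0.50) and the lysyl hydroxylase Plod2 (0.39) rose. The lysyl oxidase Loxl4 (-2.23), the procollagen protease enhancer Pcolce (-1.28) and the prolyl hydroxylases P4ha1 (-0.85) and P3h2 (-0.99) fell, with adjusted p of at most 1.06e-04 for these 6 genes.

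Both activators of plasminogen fell: Plau (urokinase) to 732, 721 and 749 CPM in NC+TGF-β1 libraries, against 1238, 1254 and 1174 CPM in NC libraries (log2 change -0.73, SE 0.0287, adjusted p = 3.39e-11), and Plat (tissue-type activator) to 129, 132 and 132 CPM in NC+TGF-β1 libraries, against 227, 236 and 229 CPM in NC libraries (log2 change -0.81, SE 0.0347, adjusted p = 8.58e-11). The metalloprotease inhibitor Timp2 fell (log2 change -0.34, adjusted p = 6.26e-07) and Timp1 was at a log2 change of -0.10 (adjusted p = 0.0718), and was called lower without NC replicate 1 (-0.14). Of 23 proteases and inhibitors 10 rose and 8 fell, and of those past 1.5-fold 7 rose and 4 fell. None of the proteases and inhibitors named in this paragraph was among those that rose. Of 20 integrin genes and partners 11 rose and 6 fell. The fibronectin receptor subunits Itga5 (log2 change 0.79, adjusted p = 1.87e-08) and Itgb1 (log2 change 0.80, adjusted p = 2.83e-11) and the vitronectin receptor subunit Itgav (log2 change 0.74, adjusted p = 1.91e-09) rose. Itga3, which pairs with Itgb1 to bind laminins, fell to 1432, 1335 and 1416 CPM in NC+TGF-β1 libraries, against 2542, 2490 and 2635 CPM in NC libraries (log2 change -0.87, SE 0.032, adjusted p = 1.79e-11). Itgb6, whose product frees latent TGF-β1 in epithelia, fell too, as given above.

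Beyond its level, the mix of Fn1 transcripts differed between the groups. The deposited tables give estimated counts per RefSeq transcript, and 7 Fn1 transcripts could be matched by ID to the exon structure in GENCODE M21. They differ in exon 25 of 273 bases, exon 33 of 270 bases and exon 40 of 467 bases, numbered along the 46 exons of the longest. Exons 25 and 33 are the extra type III domains EIIIB and EIIIA, of which EIIIA is a textbook trait of the fibronectin that cells lay down in wounds. Transcripts with exon 33 held 55, 51.9 and 53.4% of the matched counts in NC+TGF-β1 libraries, against 33, 31.5 and 31.6% in NC libraries. The groups did not overlap, and the means were 53.4% ± 1.54 with TGF-β1 and 32% ± 0.852 without (SD, n = 3 each). NM_001276408, which holds exon 33, had a mean of 63360 estimated counts with TGF-β1 and 8644 without. NM_001276410, which lacks it, had 55900 with TGF-β1 and 18360 without. Transcripts that could not be matched held 5.12% ± 0.151 of the gene's counts with TGF-β1 and 1.13% ± 0.23 without. Tpm1, a tropomyosin of the contractile cytoskeleton, was another case, a gene whose whole level was not called, 438 ± 22.7 CPM in NC+TGF-β1 libraries, against 442 ± 21.6 CPM in NC libraries (SD, n = 3 each; log2 change -0.01, adjusted p = 0.8). Its transcripts NM_001164252 and NM_001164253 carry different versions of a 76-base internal exon, among other differences. NM_001164252 held 44.8% ± 0.706 of the gene's counts in NC+TGF-β1 libraries, against 33.8% ± 1.2 in NC libraries. NM_001164253 held 49.1% ± 0.983 with TGF-β1, against 59.6% ± 0.439 without (SD, n = 3 each). Both genes were picked after their transcript values were seen, the shares are estimates by the authors' software, and no test was made. The epithelial splicing factors Esrp1 (0.05, adjusted p = 0.223) and Esrp2 (0.17, adjusted p = 0.0127) had small log2 changes, and the call of Esrp2 was lost without NC replicate 2 (adjusted p = 0.0619) or NC+TGF-β1 replicate 2 (0.0544).

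**Figure D2:**
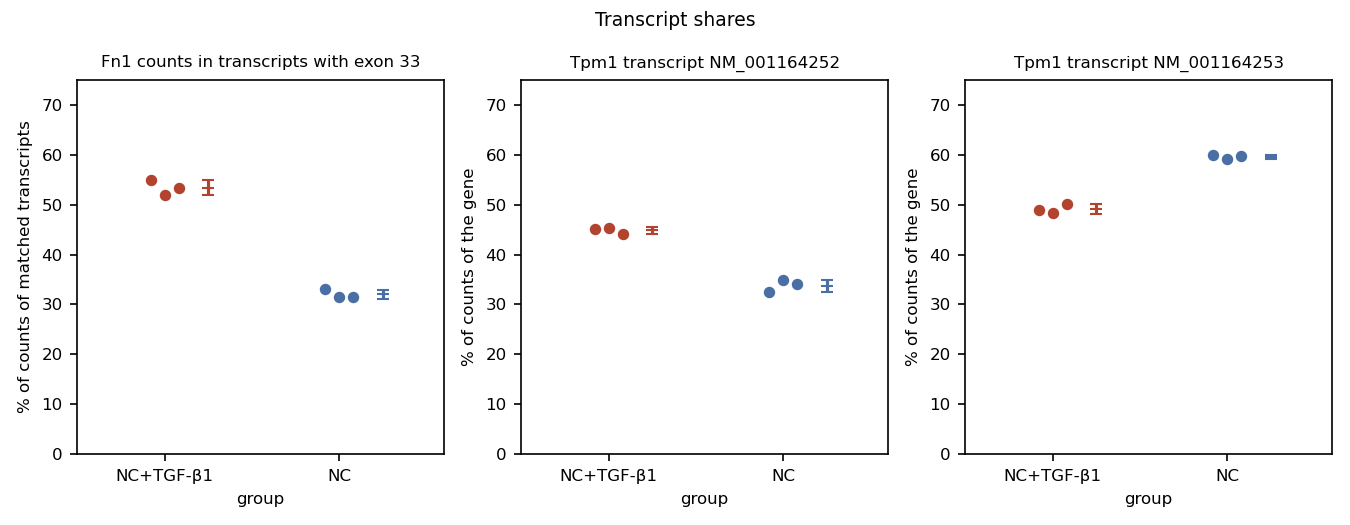
Share of estimated counts, in percent, in each NC+TGF-β1 library (red) and NC library (blue), with mean ± SD beside them: Fn1 transcripts with exon 33 among the matched Fn1 transcripts, and 2 Tpm1 transcripts among all counts of that gene. The groups do not overlap in any of the 3 panels.

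The actin and contractile genes rose broadly and mostly by small steps. Of 43 tested, 34 rose and 2 fell, a share of 79.1% higher, with a median log2 change of 0.48. The abundant cytoskeletal actin Actb was at 2466, 2362 and 2576 CPM in NC+TGF-β1 libraries, against 1681, 1720 and 1925 CPM in NC libraries (log2 change 0.48, SE 0.0456, adjusted p = 5.31e-07), with no overlap between the groups, and Actg1 rose (log2 change 0.10, adjusted p = 0.00401). The focal adhesion protein Zyx (log2 change 1.06, adjusted p = 2.08e-12), caldesmon Cald1 (log2 change 0.99, adjusted p = 1.59e-08), the stress fibre protein Pdlim7 (log2 change 0.96, adjusted p = 8.97e-11) and the small GTPase Rhob (log2 change 1.67, adjusted p = 5.26e-13) rose more. Mylk, the kinase of myosin light chains, was the exception at the other end, at 8.21, 8.49 and 7.53 CPM in NC+TGF-β1 libraries, against 27.4, 26.1 and 28.8 CPM in NC libraries (log2 change -1.76, SE 0.0772, adjusted p = 1.15e-10). Acta2, the smooth muscle actin of myofibroblasts, had 40, 47 and 55 estimated counts in NC+TGF-β1 libraries, against 2, 1 and 0 in NC libraries. Tagln, which marks the same state, had 24, 18 and 29 estimated counts with TGF-β1, against 2, 0 and 0 without. Both were called (adjusted p = 1.6e-08 and 7.81e-06), yet both are sparse in every library, and Acta2 reads may be shared with the paralog Acta1. Srf, the serum response factor, which binds CArG boxes in actin genes, rose itself (log2 change 0.47, SE 0.0457, adjusted p = 5.95e-07).

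The promoter of Srf is shown because the gene codes for the factor whose own binding letters it carries. Sequences are from RefSeq on GRCm38.p6, 5′ to 3′ on the strand of the gene, with the matches in capitals. CArG boxes were searched on both strands in the 250 bases before and 50 after each gene's start, and a match is a description of these letters only. The stretch of the Srf promoter at chr17:46556170-46556289 (minus strand) holds 2:
Srf: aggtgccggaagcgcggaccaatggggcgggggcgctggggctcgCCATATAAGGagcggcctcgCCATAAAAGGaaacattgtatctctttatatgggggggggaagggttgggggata
Of the 9373 tested genes with a promoter there, 1.6% held a CArG box, against 23.1% (9 of 39) of the contractile genes and 3.16% (10 of 316) of the genes that rose by at least 2-fold. Within the contractile list the median log2 change was 0.40 for the 9 genes with a CArG box and 0.51 for those without. Genes were placed in the contractile list for their known function, which for several includes control by Srf.

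Both mesenchymal and epithelial genes moved in both directions. Vim, vimentin, had 6, 12 and 13 estimated counts in NC+TGF-β1 libraries, against 2, 6 and 6 in NC libraries, and was not called (adjusted p = 0.224). Snai1, a repressor of E-cadherin, was at 1.48, 1.36 and 1.55 CPM in NC+TGF-β1 libraries, against 0.112, 0.217 and 0.271 CPM in NC libraries (log2 change 2.82, SE 0.285, adjusted p = 8.98e-07). Zeb1, another such repressor, was at 17.3, 17.6 and 14.5 CPM in NC+TGF-β1 libraries, against 6.61, 6.9 and 6.94 CPM in NC libraries (log2 change 1.27, SE 0.0986, adjusted p = 5.64e-08). Hmga2, a chromatin protein tied to this switch, fell to 142, 146 and 136 CPM in NC+TGF-β1 libraries, against 510.4, 486 and 464 CPM in NC libraries (log2 change -1.78, SE 0.0434, adjusted p = 2.47e-13). Of 15 mesenchymal genes 7 rose and 5 fell, and Twist2 (log2 change -0.97) and S100a4 (log2 change -0.89) were among those that fell. Cdh2, N-cadherin, was at 584, 611 and 588 CPM in NC+TGF-β1 libraries, against 658, 628 and 603 CPM in NC libraries, ranges that overlap (log2 change -0.08, adjusted p = 0.0437). Its call was lost without NC replicate 1 (adjusted p = 0.198), NC replicate 2 (0.0785), NC+TGF-β1 replicate 1 (0.137) or NC+TGF-β1 replicate 3 (0.119). Cdh1, E-cadherin, was higher, at 290.4, 294 and 295 CPM in NC+TGF-β1 libraries, against 244, 242 and 241 CPM in NC libraries (log2 change 0.28, SE 0.0243, adjusted p = 2.12e-07). Of 47 genes of epithelial junctions and keratins 24 rose and 15 fell. The keratins Krt8 (log2 change 0.98, adjusted p = 5.26e-13) and Krt18 (log2 change 0.56, adjusted p = 1.25e-08), the adhesion molecule Epcam (log2 change 0.87, adjusted p = 2.78e-11) and the claudin Cldn4 (log2 change 1.31, adjusted p = 1.22e-14) rose. Cldn4 was at 2222, 2261 and 2245 CPM in NC+TGF-β1 libraries, against 894, 901 and 912 CPM in NC libraries. In contrast, Krt19 (log2 change -0.70, adjusted p = 1.28e-10), Cldn1 (log2 change -1.26, adjusted p = 1.95e-10), the tight junction protein Tjp3 (log2 change -1.41, adjusted p = 1.98e-07), occludin Ocln (log2 change -0.37, adjusted p = 4.23e-06) and the kidney cadherin Cdh16 (log2 change -0.39, adjusted p = 5.64e-08) fell. Cdh6, a cadherin of the developing proximal tubule, was at 276, 286 and 272 CPM in NC+TGF-β1 libraries, against 65.6, 60.9 and 52.6 CPM in NC libraries (log2 change 2.22, SE 0.0609, adjusted p = 7.42e-13).

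Those tubular identity genes that could be tested leaned lower by count, and injury genes split. Of 45 genes of identity and transport 37 were among the genes analysed and 17 were tested. Of these 17, 5 rose and 10 fell, and past 2-fold 5 rose and 3 fell. Lrp2 had 2, 0 and 1 estimated counts in NC+TGF-β1 libraries, against 1, 0 and 0 in NC libraries. Fxyd2 had 2, 1 and 2 with TGF-β1, against 1, 0 and 1 without, and neither was tested. The kidney transcription factors Pax8 (log2 change -0.53, adjusted p = 9.31e-09) and Pax2 (log2 change -0.32, adjusted p = 1.31e-05), the bicarbonate transporter Slc4a4 (log2 change -1.62, adjusted p = 9.67e-13) and the brush border peptidase Mme (log2 change -0.87, adjusted p = 2.09e-08) fell. The water channel Aqp1 (log2 change 1.11, adjusted p = 2.7e-09), the potassium channel Kcnj16 (log2 change 2.99, adjusted p = 6.68e-11) and the developmental factor Emx2 (log2 change 1.05, adjusted p = 1.36e-10) rose. Of 25 injury and repair genes 11 rose and 13 fell. With Clu, the lipid droplet protein Plin2 (log2 change 1.34, adjusted p = 6.11e-13) and the repair factors Sox4 (log2 change 0.91, adjusted p = 2.25e-07) and Sox9 (log2 change 0.36, adjusted p = 1.39e-05) rose. The classical injury marker Havcr1 (KIM-1) was sparse at 0.342, 0.566 and 0.804 CPM in NC+TGF-β1 libraries, against 1.85, 1.25 and 1.14 CPM in NC libraries, and fell (log2 change -1.29, adjusted p = 0.00136). Lcn2 (NGAL) was at 268, 278 and 276 CPM in NC+TGF-β1 libraries, against 244, 254 and 251 CPM in NC libraries, and rose (log2 change 0.13, adjusted p = 0.0016). The small heat shock protein Cryab (log2 change -1.56, adjusted p = 4.48e-13) and the adhesion molecule Vcam1 (log2 change -1.74, adjusted p = 6.27e-06) fell.

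Genes of growth factor, Wnt and Notch signals moved in both directions. Pdgfb (Entrez 18591), a growth factor for fibroblasts and pericytes, was at 856, 842 and 891 CPM in NC+TGF-β1 libraries, against 205, 204 and 204 CPM in NC libraries (log2 change 2.08, SE 0.0344, adjusted p = 6.59e-15). Jag1, a Notch ligand, was at 499.8, 501 and 502 CPM in NC+TGF-β1 libraries, against 166, 156 and 166 CPM in NC libraries (log2 change 1.62, SE 0.0297, adjusted p = 1.45e-14). Neither gene's groups overlapped. Pdgfc (log2 change 1.67, adjusted p = 1.49e-13), Fgf1 (log2 change 2.74, adjusted p = 2.47e-14) and the Notch target Hes1 (log2 change 0.81, adjusted p = 4.51e-07) rose as well. Among EGF receptor ligands Areg fell (log2 change -1.28, adjusted p = 2.86e-06) and Hbegf rose (log2 change 0.83, adjusted p = 4.88e-10). Wnt4 (log2 change -1.33, adjusted p = 7.88e-07), the vasoconstrictor Edn1 (log2 change -0.46, adjusted p = 3.17e-05) and the growth factor carrier Igfbp3 (log2 change -1.21, adjusted p = 6.06e-11) fell. Of 38 genes in these signals 20 rose and 13 fell. Of 23 YAP-TEAD targets 11 rose and 6 fell. Ccn1 (log2 change 0.996, adjusted p = 1.09e-12), tissue factor F3 (log2 change 1.33, adjusted p = 3.47e-12) and the kinase Nuak2 (log2 change 1.17, adjusted p = 4.19e-13) rose, and Ankrd1 (log2 change 0.16, adjusted p = 9.34e-05) and Amotl2 (log2 change 0.15, adjusted p = 1.4e-04) rose by less. Of 29 immediate early genes and phosphatases 11 rose and 13 fell. Junb and Fosb (log2 change 1.49, adjusted p = 2.1e-08) rose, and Egr1 (log2 change -1.14, adjusted p = 5.6e-09), Klf4 (log2 change -1.11, adjusted p = 2.97e-07) and Fosl1 (log2 change -0.66, adjusted p = 2.79e-07) fell.

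Several chemokines of neutrophils and lymphocytes and interferon-induced Ifit genes fell. Ccl20 (Entrez 20297), a chemoattractant for lymphocytes and dendritic cells, stood at 0.798, 0.509 and 0.402 CPM in NC+TGF-β1 libraries, against 27.2, 30.1 and 30.1 CPM in NC libraries (log2 change -5.66, SE 0.166, adjusted p = 1.59e-12). Cxcl5, a neutrophil chemokine, was the more abundant, at 16.3, 16.2 and 16 CPM in NC+TGF-β1 libraries, against 195, 174 and 163 CPM in NC libraries (log2 change -3.46, SE 0.0671, adjusted p = 2.53e-14). Cxcl1 was at 6.73, 9.05 and 8.62 CPM in NC+TGF-β1 libraries, against 55.5, 57.5 and 53.2 CPM in NC libraries (log2 change -2.77, SE 0.0719, adjusted p = 4.49e-13). In each of these genes the highest library with TGF-β1 lay under the lowest without it. Il33, an alarmin of epithelia, was at 0.513, 1.25 and 0.747 CPM in NC+TGF-β1 libraries, against 15.6, 16.2 and 15.5 CPM in NC libraries (log2 change -4.23, SE 0.188, adjusted p = 1.35e-10). Of 39 genes of this group 9 rose and 19 fell, and of those past 1.5-fold 3 rose and 13 fell. The exceptions include Il11, given above, and the NF-κB brake Tnfaip3 (log2 change 0.43, adjusted p = 1.31e-07). The NF-κB inhibitor Nfkbia was at 23.3, 22.3 and 21.8 CPM in NC+TGF-β1 libraries, against 20.3, 20.5 and 21.9 CPM in NC libraries (log2 change 0.11, adjusted p = 0.185). Among 22 interferon and antigen presentation genes 6 rose and 8 fell. Ifit3 was at 3.19, 4.87 and 4.08 CPM in NC+TGF-β1 libraries, against 60, 61.2 and 63.3 CPM in NC libraries (log2 change -3.92, SE 0.101, adjusted p = 4.42e-13), and Ifit2 fell as well (log2 change -1.86, adjusted p = 3.33e-11). Ifit3b fell too (log2 change -4.21, adjusted p = 7.15e-13), and reads may be shared between Ifit3 and Ifit3b. Irf1 (log2 change 1.12, adjusted p = 7.07e-09) and the class I light chain B2m (log2 change 0.68, adjusted p = 1.01e-06) rose. The myeloid transcription factor Spi1 fell to 0.855, 0.283 and 0.517 CPM in NC+TGF-β1 libraries, against 5.04, 5.05 and 5.64 CPM in NC libraries (log2 change -3.23, adjusted p = 1.74e-07), beside the summed immune markers given above, whose part in this result was not tested.

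Genes of stratified epithelium were among the other large decreases by fold. Sprr1a (Entrez 20753), a cross-linked protein of the cornified envelope, was at 4.33, 4.81 and 4.88 CPM in NC+TGF-β1 libraries, against 133, 128 and 138 CPM in NC libraries (log2 change -4.83, SE 0.0966, adjusted p = 3.25e-14). Padi1, which deiminates keratins, was at 0.684, 0.226 and 0.287 CPM in NC+TGF-β1 libraries, against 8.85, 9.45 and 9.11 CPM in NC libraries (log2 change -4.49, SE 0.194, adjusted p = 9.61e-11). Scel, sciellin of the same envelope, was at 2.17, 2.72 and 2.64 CPM in NC+TGF-β1 libraries, against 25.9, 23.1 and 22.1 CPM in NC libraries (log2 change -3.24, SE 0.106, adjusted p = 5.3e-12). The ceramide-linked transporter Nipal4 (-3.25), the ubiquitin ligase Pdzrn3 (-3.71) and the membrane-bending Baiap2l2 (-3.37) fell to a like extent on the log2 scale (adjusted p at most 6.5e-09). Pdzrn3 was at 5.7, 6.05 and 6.72 CPM in NC+TGF-β1 libraries, against 80.9, 82.2 and 79.5 CPM in NC libraries.

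The ATF4 program of amino acid supply and stress fell. Of 37 tested genes 30 fell (81.1%) and 5 rose, with a median log2 change of -0.70, and 15 of those that fell and 2 of those that rose passed 2-fold. Atf4, the transcription factor, was at 378, 353 and 384 CPM in NC+TGF-β1 libraries, against 566, 571 and 565 CPM in NC libraries (log2 change -0.61, SE 0.0315, adjusted p = 6.92e-10). Psat1, of serine synthesis, was at 286, 281 and 271 CPM in NC+TGF-β1 libraries, against 696, 693 and 708 CPM in NC libraries (log2 change -1.32, SE 0.0271, adjusted p = 3.7e-14). Nupr1, a stress-induced chromatin protein, was at 29.9, 27.4 and 30.7 CPM in NC+TGF-β1 libraries, against 155, 168 and 168 CPM in NC libraries (log2 change -2.48, SE 0.0506, adjusted p = 3.67e-14). In these 3 genes no library with TGF-β1 reached the level of any library without it. Asns, asparagine synthetase, was at 138, 143 and 133 CPM in NC+TGF-β1 libraries, against 227, 245 and 234 CPM in NC libraries (log2 change -0.77, SE 0.0382, adjusted p = 4.41e-10). The pseudokinase Trib3 (log2 change -1.39, adjusted p = 4e-11), the glutathione-degrading Chac1 (log2 change -1.66, adjusted p = 4.49e-13), the proapoptotic factor Ddit3 (log2 change -1.39, adjusted p = 5.2e-10) and the cystine transporter Slc7a11 (log2 change -1.96, adjusted p = 3.81e-09) fell more. Phgdh, which opens serine synthesis, fell (log2 change -0.67, adjusted p = 1.3e-10), and so did Cth, of the transsulfuration route to cysteine (log2 change -1.71, adjusted p = 4.41e-09). Cbs, the enzyme before Cth in that route, went the other way at 10.8, 13.1 and 12.4 CPM in NC+TGF-β1 libraries, against 1.57, 1.9 and 2.01 CPM in NC libraries (log2 change 2.72, SE 0.116, adjusted p = 8.82e-11). Of 20 cytosolic aminoacyl-tRNA synthetases, many of them known ATF4 targets, 15 fell (75%) and 2 rose. Wars fell most among those named, at 83.8, 81.5 and 83.5 CPM in NC+TGF-β1 libraries, against 166, 166 and 173 CPM in NC libraries (log2 change -1.02, SE 0.0343, adjusted p = 6.75e-12), followed by Cars (log2 change -0.74, adjusted p = 5.19e-11), Sars (log2 change -0.57, adjusted p = 4.06e-08) and Aars (log2 change -0.51, adjusted p = 2e-09).

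ATF4 binds the C/EBP-ATF response element, of which the letters TGATGNAA were searched on both strands in the same promoters. Short stretches of promoters of 4 genes that fell are shown, since they carry the letters through which the factor is known to act, with the match in capitals and RefSeq coordinates on GRCm38.p6 (Asns chr6:7693180-7693277 minus, Trib3 chr2:152344011-152344091 minus, Chac1 chr2:119351004-119351101 plus, Nupr1 chr7:126625528-126625625 minus):
Asns: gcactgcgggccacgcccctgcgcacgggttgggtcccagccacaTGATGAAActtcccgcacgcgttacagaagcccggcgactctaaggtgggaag
Trib3: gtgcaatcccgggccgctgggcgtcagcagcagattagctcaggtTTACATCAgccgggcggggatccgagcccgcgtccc
Chac1: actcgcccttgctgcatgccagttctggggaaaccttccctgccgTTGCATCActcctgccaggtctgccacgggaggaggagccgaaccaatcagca
Nupr1: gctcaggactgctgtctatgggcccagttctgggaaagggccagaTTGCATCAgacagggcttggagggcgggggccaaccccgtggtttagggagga
The element stands in forward letters in Asns and in reverse in the other 3. It was found in 2.74% of the 9373 promoters (257) and in 26.5% (9 of 34) of those of the ATF4 list. Of these 9 genes 8 fell and Fgf21, a stress hormone named after its value was seen, rose (log2 change 1.24, adjusted p = 3.31e-04), with a median log2 change of -1.39 over the 9, against -0.64 for the 25 without it. Among all genes the letters stood in 6.2% of the promoters of genes that fell by at least 2-fold and in 5.7% of those that rose by at least 2-fold. The letters for AP-1 (TGANTCA) were found in 14.2% of promoters of genes that rose by at least 2-fold and in 11% of those that fell by as much, against 6.4% of all. Those bound by Smads (CAGACA) were found in 26.9% of promoters of the genes that rose and 21.1% of those that fell by as much, against 18.4% of all. TEAD letters (GGAATG) stood in 15.2% of those that rose and 18.6% of those that fell, against 14.3% of all. The E-box bound by Snail and Zeb factors (CAGGTG) stood in 19.9% of those that rose and 27.9% of those that fell, against 20.7% of all. These are counts of letters, with no test. The promoters searched were those of 316 of the 449 genes that rose by at least 2-fold and 484 of the 614 that fell by as much. Fn1, Ccn2, Tagln, Clu and Smad7 had no promoter sequence to search. Matches to different motifs may overlap in a promoter and were counted for each.

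Most glycolytic genes fell, while genes of the respiratory chain moved by small steps. Of 22 tested genes of glycolysis and glucose uptake 19 fell (86.4%) and 3 rose, with a median log2 change of -0.61 (12 fell by at least 1.5-fold). Ldha, lactate dehydrogenase, was at 494, 476 and 489 CPM in NC+TGF-β1 libraries, against 862, 884 and 919 CPM in NC libraries (log2 change -0.87, SE 0.0296, adjusted p = 8.09e-12). Pfkp, platelet-type phosphofructokinase, was at 10.4, 10.2 and 10.7 CPM in NC+TGF-β1 libraries, against 25, 24.9 and 26.4 CPM in NC libraries (log2 change -1.29, SE 0.0783, adjusted p = 3.99e-09), and its liver-type paralog Pfkl fell as well (log2 change -1.26, adjusted p = 2.39e-12). The groups of all 3 genes were apart. Pgk1 (log2 change -0.74, adjusted p = 4.64e-11), Pkm (log2 change -0.44, adjusted p = 8.62e-09), Gapdh (log2 change -0.29, adjusted p = 3.48e-06) and the glucose transporter Slc2a1 (log2 change -0.38, adjusted p = 3.27e-07) fell, and hexokinase Hk2 rose (log2 change 0.16, adjusted p = 0.00102). Of 22 targets of the hypoxia-inducible factor, which share Ldha, Pgk1, Pdk1 and Slc2a1 with that list, 13 fell and 7 rose. Bnip3, of mitophagy, fell (log2 change -1.15, adjusted p = 3.71e-09), while Vegfa (log2 change 0.44, adjusted p = 1.12e-07) and Ndrg1 (log2 change 0.64, adjusted p = 3.39e-09) rose. Of 32 enzymes of the TCA cycle and fumarate 13 fell and 5 rose. Fh1 itself was at 49.6, 49.7 and 49.4 CPM in NC+TGF-β1 libraries, against 51.4, 53.9 and 53.5 CPM in NC libraries (log2 change -0.09, SE 0.0432, adjusted p = 0.072), which did not pass, although without NC replicate 1 it did (-0.12, adjusted p = 0.0496). Of 72 subunits of the respiratory chain 31 rose and 8 fell, with a median log2 change of 0.13, and 1 passed 1.5-fold.

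Of 27 fatty acid oxidation genes 10 rose and 10 fell. Cpt1a (log2 change -0.25, adjusted p = 1.74e-05) and Cpt2 (log2 change -0.53, adjusted p = 1.99e-05) fell, and Acsl3 (log2 change 0.67, adjusted p = 4.34e-08) and Hadhb (log2 change 0.54, adjusted p = 3.72e-07) rose. Of 35 genes of sterol and fatty acid synthesis 21 rose and 9 fell. The sterol sensor partner Insig1 was at 247, 248 and 234 CPM in NC+TGF-β1 libraries, against 119.8, 118 and 118 CPM in NC libraries (log2 change 1.03, SE 0.0342, adjusted p = 5.76e-12), and the sterol enzyme Cyp51 rose (log2 change 0.73, adjusted p = 2.68e-11), while Scd1 (log2 change -0.25, adjusted p = 1.12e-05) and Elovl6 (log2 change -0.64, adjusted p = 1.46e-07) of fatty acid synthesis fell. Of 42 NRF2 targets and glutathione enzymes 29 fell (69%) and 5 rose, with a median log2 change of -0.28. Gstm1 was at 18.2, 20.9 and 18.8 CPM in NC+TGF-β1 libraries, against 65.3, 61.3 and 68.3 CPM in NC libraries (log2 change -1.75, SE 0.0584, adjusted p = 6.27e-12), and its reads may be shared with other members of its cluster. Nfe2l2, the factor NRF2 itself, fell (log2 change -0.37, adjusted p = 1.68e-06), as did Hmox1 (log2 change -0.31, adjusted p = 6.88e-04) and Txnrd1 (log2 change -0.23, adjusted p = 1.73e-06), and Gclm (log2 change 0.23, adjusted p = 3.48e-04) and the ferritin light chain Ftl1 (log2 change 0.68, adjusted p = 1.24e-07) rose.

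Genes that copy DNA fell, and so did many that run mitosis. Of 40 DNA replication genes 36 fell (90%) and none rose, with a median log2 change of -0.48 and 15 past 1.5-fold. Tk1, thymidine kinase, was at 48.8, 40.4 and 45.4 CPM in NC+TGF-β1 libraries, against 115, 113 and 123 CPM in NC libraries (log2 change -1.38, SE 0.069, adjusted p = 4.74e-10). Mcm2, of the replicative helicase, was at 146, 141 and 148 CPM in NC+TGF-β1 libraries, against 205, 199.6 and 203 CPM in NC libraries (log2 change -0.48, SE 0.0369, adjusted p = 5.27e-08). The groups were apart in both. Rfc5 (log2 change -1.10, adjusted p = 1.87e-10), the polymerase Pole (log2 change -0.89, adjusted p = 1.62e-10) and cyclin E1 Ccne1 (log2 change -0.72, adjusted p = 3.01e-07) fell. Of 42 mitotic genes 21 fell (50%) and 3 rose, with a median of -0.12 and 3 past 1.5-fold. Cdc25b (log2 change -0.92, adjusted p = 1.52e-10) and Aurkb (log2 change -0.51, adjusted p = 1.52e-07) fell, and the proliferation marker Mki67 was at 278, 304 and 270.4 CPM in NC+TGF-β1 libraries, against 267, 277 and 299 CPM in NC libraries, overlapping ranges (log2 change 0.02, adjusted p = 0.804). Ccnd1, cyclin D1, was at 1252, 1272 and 1263 CPM in NC+TGF-β1 libraries, against 1820, 1914 and 1875 CPM in NC libraries (log2 change -0.57, SE 0.025, adjusted p = 1.22e-10), and Ccnd3 fell as well (log2 change -0.84, adjusted p = 1.29e-09). Of the CDK inhibitors, Cdkn2b rose as given above, and Cdkn2c (log2 change -0.66, adjusted p = 4.73e-07) and Cdkn2d (log2 change -0.78, adjusted p = 2.02e-06) fell. Of 28 genes of the p53 and BCL2 families 8 rose and 11 fell, and the survival protein Bcl2l1 fell (log2 change -0.28, adjusted p = 6.58e-07).

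Of 30 chaperones and folding enzymes of the endoplasmic reticulum 18 rose (60%) and 7 fell. Xbp1 was at 101, 108 and 102 CPM in NC+TGF-β1 libraries, against 59.6, 58.4 and 56.5 CPM in NC libraries (log2 change 0.83, SE 0.0446, adjusted p = 1.07e-09), the chaperone Hspa5 rose (log2 change 0.37, adjusted p = 1.05e-08) and so did Manf (log2 change 0.79, adjusted p = 1.41e-09), while Herpud1 fell (log2 change -0.81, adjusted p = 6.48e-08). Of 75 cytosolic ribosomal proteins 13 rose and 24 fell, none past 1.5-fold, with a median log2 change of -0.02. Of 16 genes of A-kinase anchoring and protein kinase A 5 rose and 6 fell. Akap12, the scaffold named in the series' title, was at 749.5, 761 and 743 CPM in NC+TGF-β1 libraries, against 544, 533 and 563 CPM in NC libraries (log2 change 0.46, SE 0.0294, adjusted p = 7.23e-09). The regulatory subunit Prkar2b fell (log2 change -1.31, adjusted p = 3.78e-07).

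**Figure D3:**
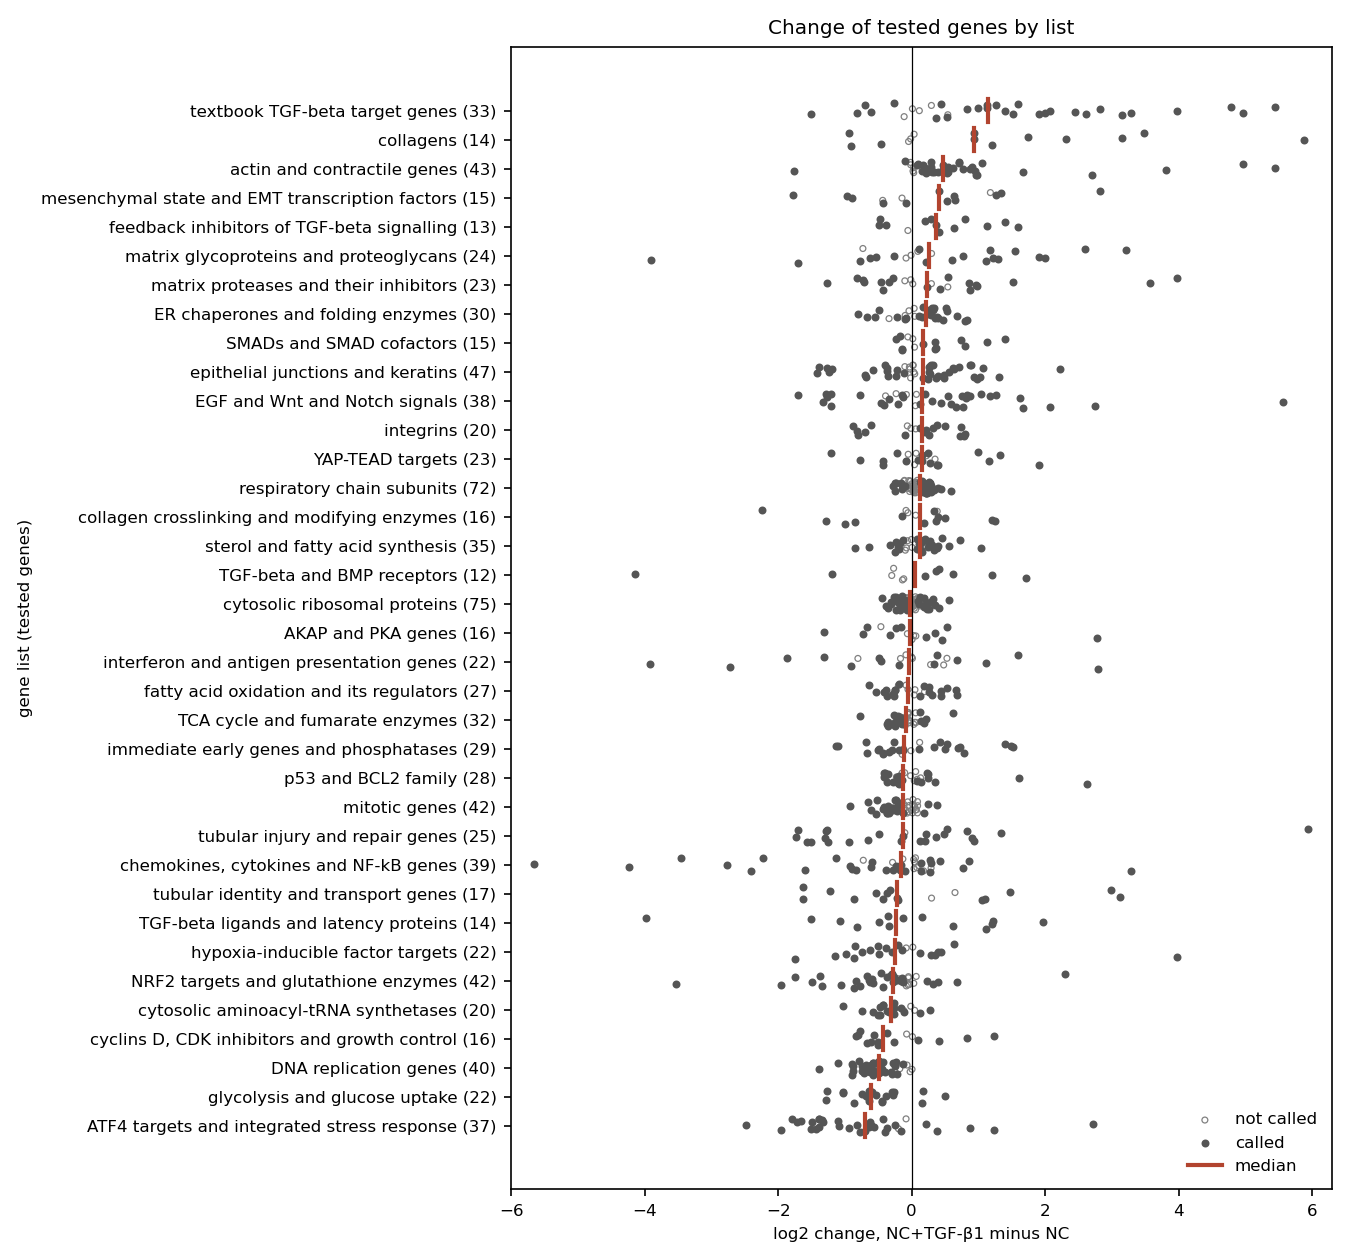
Log2 change, NC+TGF-β1 minus NC, of every tested gene of 36 lists (a dot per gene, filled where called, open where not), ordered by the median (red line), with the number tested in brackets. Medians run from 1.14 for textbook targets to -0.70 for the ATF4 program. Genes can stand in more than 1 list.

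In transcript mass, the genes called higher together held a summed 454139 CPM in NC+TGF-β1 libraries, against 341286 in NC libraries, and those called lower held 282531, against 370103 (group means). Fn1, Ccn2, Cldn4, Ftl1 and Thbs1 were among the 6 largest gains in CPM by the naming rule. Ftl1 was at 4112, 3331 and 3609 CPM in NC+TGF-β1 libraries, against 2249, 2297 and 2366 CPM in NC libraries, and its reads may be shared with processed copies. The largest losses were in the elongation factors Eef2 (log2 change -0.32, adjusted p = 2.19e-07) and Eef1a1 (log2 change -0.16, adjusted p = 1.02e-04), Itga3, the calcium-binding S100a6 (log2 change -0.69, adjusted p = 2.49e-09), the ribosomal stalk protein Rplp0 (log2 change -0.39, adjusted p = 6.15e-08) and Gapdh. Eef1a1 was the most abundant of these, at 10700, 10930 and 10750 CPM in NC+TGF-β1 libraries, against 11760, 11900 and 12610 CPM in NC libraries.

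The response of control cells was set beside that of cells with Fh1 silenced, which rests on the other 6 libraries. Of the 449 genes at least 2-fold higher in control cells, 425 were called higher in silenced cells and none lower, and of the 614 at least 2-fold lower, 575 were called lower and none higher. Among all tested genes 31.4% were called higher and 33.7% lower in silenced cells. The median log2 change of the first set was 1.54 in silenced and 1.52 in control cells, and that of the second -1.45 in silenced and -1.47 in control cells. A difference between the responses was called for 104 of 11707 genes (0.888%), for 6 of the 449 and for 22 of the 614. Of these 22, 17 changed less in silenced cells and 5 more. The set was chosen for its change in control cells, which also enters the difference, so the choice itself can tilt this split. In the ATF4 list 14 of 37 genes had a called difference. Chac1 had a log2 change of -1.09 in silenced cells and of -1.66 in control cells (difference 0.57, adjusted p = 8.44e-04). Nupr1 fell by 1.89 in silenced cells and by 2.48 in control cells (difference 0.59, adjusted p = 0.0013), and Trib3 by 0.90 in silenced and by 1.39 in control cells (difference 0.49, adjusted p = 0.00921). For Fn1 the difference was 0.07, adjusted p = 0.545, for Ccn2 0.03, adjusted p = 0.843 and for Smad7 -0.03, adjusted p = 0.888, none of which passed. A p that misses the threshold does not show that the responses are alike.

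**Figure D4:**
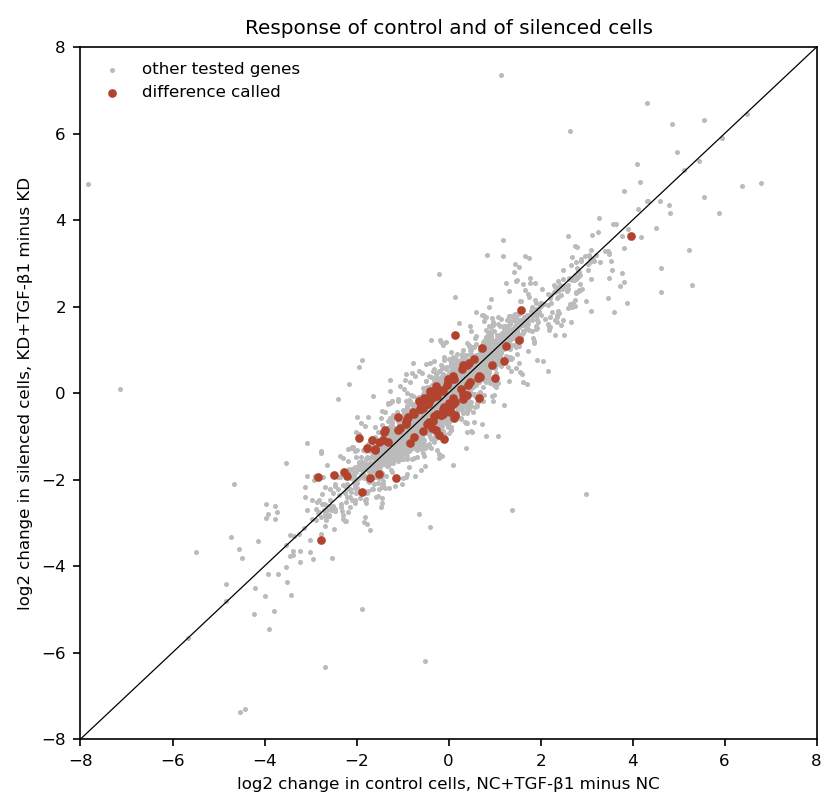
Log2 change with TGF-β1 in control cells (horizontal) and in Fh1-silenced cells (vertical) for the 11707 tested genes (grey dots), with the 104 genes whose difference was called in red and a line of equal change. The 2 axes rest on separate libraries.

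**Figure D5:**
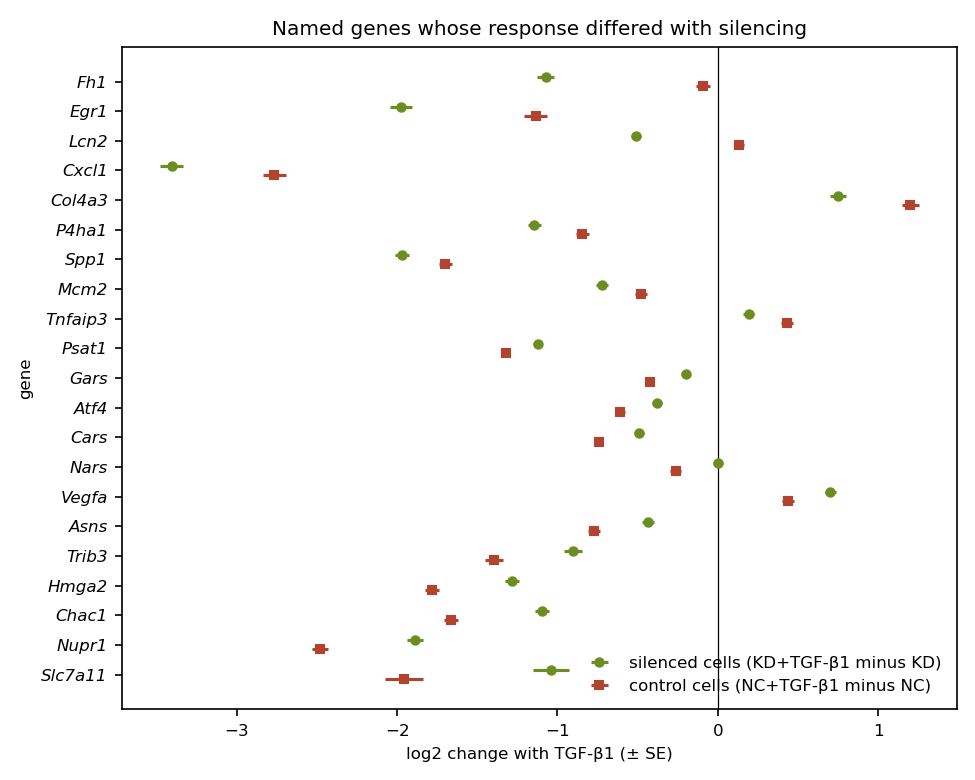
Log2 change with TGF-β1 (± SE of the fit) in silenced (green circles) and control cells (red squares) for the 21 named genes whose difference was called. The ATF4 genes Nupr1, Chac1, Trib3, Psat1, Asns and Slc7a11 fell less in silenced than in control cells, with the difference no longer called for Psat1 and Slc7a11 without KD+TGF-β1 replicate 1.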

How the data were processed

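Per the labels, total RNA was isolated with TRIzol and made into mRNA libraries with a BGI kit. HISAT2, Bowtie2, RSEM 1.3.1 and DESeq2 1.34.0 are named without roles in the submitters' processing notes, as is hg38, a human build, although the samples are mouse. The authors deposited estimated counts (expected counts, not normalized) per RefSeq transcript, per the file headers. The authors also deposited TPM for the same transcripts, normalized for length and depth, per the file headers. Basal and TGF-β1 libraries stand in separate tables, and 24 other per-sample columns were not used. Estimated counts were summed per Entrez gene and rounded, for the 15802 genes present in both. Of 1857 genes listed only with TGF-β1, 2 had at least 10 counts in each NC+TGF-β1 library, with at most 25 in any.

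Testing used edgeR 4.0.16 in R 4.3.3 with TMM scaling (factors 0.978 to 1.02) and filterByExpr. The quasi-likelihood model had 1 mean for each of the 4 groups, 12 libraries and 8 residual degrees of freedom. Genes with a Benjamini-Hochberg adjusted p under 0.05, among 11707, were called. SE is the standard error of a fitted log2 change, and CPM were scaled by TMM. The biological coefficient of variation was 4.6%. Replicates differed by more than sampling noise (chi-square per gene 1.74 to 13.4, highest between NC replicates 1 and 3). On simulated data for NC+TGF-β1 against NC (11575 to 11587 genes, 200 of them changed), 62% were recovered at 1.25-fold, 80% at 1.5-fold and 92.5% at 2-fold, with 11 to 13 false calls. Far fewer genes were changed there than were called here, and no difference between the deposited tables was simulated. The false calls therefore do not give the error among the 7511 calls.

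Named genes were the 12 largest log2 increases and decreases and the 6 largest gains and losses in CPM among called genes of at least 5 CPM without overlap, core genes of each list, and up to 5 called members of each list with the largest change. Members, lists and this rule were chosen with earlier results of these data known. Alternatives were DESeq2 1.42.0, its size factors in edgeR, no filter, limma 3.58.1 on log2(TPM + 1), the replicate block, only 6 libraries, shared transcripts, each library left out, and a 2-fold limit. A few genes meeting this rule were left out of the text.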

Additional observations from a re-analysis of the deposited data

Results flagged for a closer look

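For 21 of the named genes the response to TGF-β1 differed between silenced and control cells by the test of the difference itself in edgeR (response in silenced cells minus response in control cells, log2 scale). All 21 rest on the deposited tables in the same way as the responses themselves, and no explanation was tested. Among genes with a more negative difference, Fh1, the silenced gene, had a log2 change of -1.07 in silenced and -0.09 in control cells (difference -0.98, adjusted p = 8.18e-06). Egr1 had -1.97 and -1.14 (difference -0.84, adjusted p = 0.0013), Lcn2 -0.51 and 0.13 (difference -0.65, adjusted p = 8.18e-06) and Cxcl1 -3.40 and -2.77 (difference -0.64, adjusted p = 0.0151), silenced cells given before control cells here and below. Col4a3 (-0.45, adjusted p = 0.012), P4ha1 (-0.30, adjusted p = 0.028), Spp1 (-0.27, adjusted p = 0.0499), Mcm2 (-0.24, adjusted p = 0.0485) and Tnfaip3 (-0.24, adjusted p = 0.0485) had smaller negative differences. Positive differences were called for the ATF4 genes Slc7a11 (-1.04 and -1.96, difference 0.92, adjusted p = 0.0187), Nupr1 (0.59, adjusted p = 0.0013), Chac1 (0.57, adjusted p = 8.44e-04), Trib3 (0.49, adjusted p = 0.00921), Asns (0.34, adjusted p = 0.00921), Atf4 (0.23, adjusted p = 0.0278) and Psat1 (0.20, adjusted p = 0.0256). The synthetases Nars (0.26, adjusted p = 0.0171), Cars (0.25, adjusted p = 0.0129) and Gars (0.22, adjusted p = 0.0129), with Hmga2 (-1.28 and -1.78, difference 0.50, adjusted p = 0.0013) and Vegfa (0.26, adjusted p = 0.028), had positive differences as well. Without KD+TGF-β1 replicate 1 the call was lost for Cxcl1 (adjusted p = 0.0534), P4ha1 (0.0671), Spp1 (0.122), Psat1 (0.06), Atf4 (0.0572), Nars (0.0536) and Slc7a11 (0.0621).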

How the results depend on the processing

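The number of called genes stayed within 1.5 times 7511 under each alternative but the 2-fold limit, from 6662 with DESeq2 to 7545 with no filter, and from 6975 to 7483 with 1 library left out at a time (3199 to 3649 higher, 3752 to 3882 lower). With an absolute log2 change of at least 1 it was 1063, of which 449 rose and 614 fell. With DESeq2 size factors 3735 rose and 3768 fell, and DESeq2 itself gave 3342 and 3320. Replicate numbers did not pair the libraries: deviations of same-numbered libraries correlated at -0.0587, -0.0635 and 0.0728, and with the replicate block 7382 genes were called. Of 242 genes named and tested, 234 kept direction and side of the threshold under every alternative to which single genes were put, which leaves out the 2-fold limit. The exceptions were all small changes. Cdkn1a reversed without NC replicate 1 (-0.0063) or 2 (-0.0105) and was called without NC replicate 3 (0.0886). Mki67 reversed without NC replicate 1 (-0.0216) or NC+TGF-β1 replicate 2 (-0.0349), up to 0.0946 without NC replicate 3. Tgfbr1 was 0.0143 without NC replicate 1 and called without NC replicate 3 (-0.21). Tpm1 reversed with DESeq2 size factors (0.0143), DESeq2 (0.0143), 6 libraries (0.0090), limma (0.0014), and without NC replicate 2 (0.0093), NC replicate 3 (0.0389) or NC+TGF-β1 replicate 2 (0.0184), down to -0.0539 without NC+TGF-β1 replicate 1. Cdh2 kept its direction and lost its call with DESeq2 size factors, DESeq2, limma, the replicate block, 6 libraries, shared transcripts and 4 of the 6 libraries left out. Fh1, Timp1 and Esrp2 crossed the threshold in 1 to 2 alternatives each. The cause was not tested in any of them. Genes of a few counts per library are the least precise, since counting error sets their limit.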

Other observations

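The gene groups in this section were put together after their values had been seen, so their counts are descriptions with no test. Of 31 tested genes of the cornified envelope and of keratinocytes 20 fell and 10 rose, with a median log2 change of -1.58, and 19 of those that fell and 9 of those that rose passed 2-fold. Beside Sprr1a, Padi1 and Scel, the crosslinking enzyme Tgm1 was at 13.2, 11.4 and 12.3 CPM in NC+TGF-β1 libraries, against 70.6, 72 and 75.2 CPM in NC libraries (log2 change -2.56, adjusted p = 5.16e-14). The antimicrobial S100a7a was at 29.9, 29.2 and 29.5 CPM in NC+TGF-β1 libraries, against 132, 136 and 141 CPM in NC libraries (log2 change -2.21, adjusted p = 6.59e-15), and periplakin Ppl fell as well (log2 change -1.39, adjusted p = 1.71e-12). Among those that rose, stratifin Sfn, a 14-3-3 protein, was at 331, 322 and 321 CPM in NC+TGF-β1 libraries, against 47.1, 47 and 51.1 CPM in NC libraries (log2 change 2.75, adjusted p = 6.27e-15). No library with TGF-β1 overlapped with one without it in any of these 4 genes.

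Of 16 imprinted genes tested 6 fell and 5 rose, near the shares of 34.7% lower and 29.4% higher among all genes. Past 2-fold 5 fell and 2 rose, and the genes described here were picked from those that fell. Peg3, a zinc finger protein expressed from the paternal allele, was at 178, 176 and 184 CPM in NC+TGF-β1 libraries, against 1263, 996 and 958 CPM in NC libraries (log2 change -2.58, adjusted p = 3.22e-12), with NC replicate 1 the highest. Its neighbour Usp29 was at 1.48, 1.64 and 2.01 CPM in NC+TGF-β1 libraries, against 7.62, 7.55 and 7.87 CPM in NC libraries (log2 change -2.16, adjusted p = 3.44e-09). Snrpn was at 1.6, 1.81 and 1.44 CPM in NC+TGF-β1 libraries, against 5.88, 4.89 and 5.75 CPM in NC libraries (log2 change -1.76, adjusted p = 5.34e-06), and reads may be shared with Snurf, which overlaps it.

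Of 39 semaphorins, ephrins, netrins and receptors 19 rose and 17 fell. The ephrin receptor Ephb2 was at 90.9, 86.1 and 95.1 CPM in NC+TGF-β1 libraries, against 10.8, 11.2 and 10.5 CPM in NC libraries (log2 change 3.06, adjusted p = 2.6e-14), and the netrin receptor Unc5b was at 274, 257 and 278 CPM in NC+TGF-β1 libraries, against 47.7, 47.7 and 47.7 CPM in NC libraries (log2 change 2.50, adjusted p = 1.75e-15). The secreted Sema3c fell to 124, 126 and 119 CPM in NC+TGF-β1 libraries, against 575, 473 and 430 CPM in NC libraries (adjusted p = 8.47e-11), and Sema3e fell as well (log2 change -1.69, adjusted p = 1.99e-13). Outside these groups, the kinase Sgk1 was at 106, 106 and 100.2 CPM in NC+TGF-β1 libraries, against 13.1, 12.7 and 12 CPM in NC libraries (log2 change 3.04, adjusted p = 6.59e-15), and palladin Palld, of actin bundles, was at 157, 162 and 159.7 CPM in NC+TGF-β1 libraries, against 20.2, 19.5 and 18.8 CPM in NC libraries (log2 change 3.03, adjusted p = 1.01e-15). The transferrin receptor Tfrc was at 92.2, 90.3 and 91.2 CPM in NC+TGF-β1 libraries, against 473, 350.5 and 325 CPM in NC libraries (log2 change -2.07, adjusted p = 6.75e-10), with NC replicate 1 again the highest.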
